A study of Drosophila melanogaster with 4 samples.

Results

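The genes described here encode subunits of the mitochondrial respiratory chain and parts of the machinery that imports proteins into mitochondria. They were chosen by name: every spot of the 12k cDNA array whose single gene symbol starts with ND-, Sdh, UQCR, COX or ATPsyn, or with Tim or Tom followed by a digit, was taken, and the spots of a gene were averaged. This gave 47 genes of 6793 named genes on the design, carried by 108 spots. Complex I (NADH dehydrogenase) had 18 of them, complex II (succinate dehydrogenase) 6, complex III (the cytochrome bc1 complex) 1, complex IV (cytochrome c oxidase) 5, complex V (ATP synthase) 10 and protein import 7. The RefSeq table of the Release 6 assembly holds 106 genes whose symbols fit the same rule. Coverage of these was lowest for complexes III and IV, with 1 of 9 and 5 of 19. It was 18 of 40 for complex I, 6 of 8 for complex II, 10 of 15 for complex V and 7 of 15 for import. These counts follow symbols alone, and the prefix COX is shared by assembly factors.

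The series compared cold-shocked adult Drosophila melanogaster males with co-reared untreated males, as whole flies of the strain dp cn bw cl, aged 6 to 7 days. Cold-shocked flies spent 2 h at 0 ± 0.5 °C and recovered for 30 min at 25 °C before freezing, and untreated flies stayed at 25 °C in the treatment vessel. Both groups carried the same marker mutations and were reared at 25 °C under 12 h of light and 12 h of darkness. Each of 3 arrays of the 12k design set cold-shocked RNA (Cy5) against untreated RNA (Cy3) from 1 independent pair of samples, and the cold-shock replicates are called arrays 1 to 3 below. How many flies went into a sample is not given in the sources used here. A pilot array of another design, with the dyes the other way round, is kept apart.

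Complexes I and II pass electrons from NADH and succinate to ubiquinone. Complex III hands them on to cytochrome c, complex IV to oxygen, and complexes I, III and IV pump protons across the inner membrane, whose return flow drives ATP synthesis by complex V. Nearly all of these subunits are encoded in the nucleus, made in the cytosol and brought in through the TOM channel of the outer membrane and the TIM channels of the inner one. In flies the flight muscle is very rich in mitochondria, and many respiratory chain genes have a duplicate, marked by an L at the end of its symbol, that is expressed mainly in the testis.

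Values are the authors' log ratio of both channels of a spot, taken here as log2, because the base is not stated. A ratio above 0 most likely means a higher level in cold-shocked flies, since the usual conventions (channel 2 divided by channel 1, red by green, treated by control) give the same answer here, but the files do not state it. As all 3 arrays had the same dye orientation, a dye effect and an effect of the cold cannot be told apart. Over all spots the array medians lay between −0.13 and 0.032 and the SDs between 0.457 and 0.729. Although all samples were labelled as males, transcripts of female marker genes had a median of −0.45. Below 0 on all 3 arrays were 5 of 9 measured, against 15.1% of all features and 16.9% of named genes. The lowest were the yolk protein gene Yp1 at −4.22, −2.32 and −1.40 and dhd at −2.60, −2.78 and −1.75. Means above 0 were found for 2 markers, swa at 0.16 and fs(1)N at 0.25. The summed level of these markers could not be had from ratios. Their part in the results below was not tested. In whole flies, fewer cells of a type and less RNA per cell cannot be told apart.

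Respiratory chain and import transcripts lay close to 0 after cold shock and recovery, with class medians between −0.073 for import and 0.19 for the 1 member of complex III. The median of the 47 mean log2 ratios was 0.037, against −0.048 over the named genes and −0.038 over all 19325 features tested. A mean above 0 was seen for 27 genes and one below 0 for 20, so 27 of 47 lay above 0 where 43% of the named genes did. Array by array the median of the members was 0.033, 0.089 and 0.010, with 24, 29 and 25 of the 47 above 0. By class the medians were 0.015 for complex I, 0.11 for complex II, 0.15 for complex IV, 0.049 for complex V and −0.073 for import. Duplicates are counted in the medians of complexes I, II, IV and V, and the median of complex IV was the mean of a duplicate, COX6AL.

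None of the 47 genes passed the test, limma's moderated test of the mean log2 ratio against 0 with Benjamini-Hochberg adjustment over all 19325 features, and the smallest adjusted p among them was 0.853. The same held for every feature (0% called), so the count of 0 says nothing particular about mitochondrial genes. At an unadjusted p under 0.05 there was 1 of the 47, COX6CL, a level that 4.78% of all features reached, and 3.49% of named genes. On all 3 arrays 9 of the 47 were above 0, against 12.6% of features and 12.5% of named genes. Likewise 5 were below 0 on all 3, against 15.1% of features and 16.9% of named genes. No member was past a fold of 1.5 one way on all 3 arrays, as 0.445% of features were. Means further than 0.5 from 0 were found for 4 members, ND-39, SdhCL, COX6CL and COX7A, where 9.82% of named genes lay that far out. The 95% interval of a member's mean, from limma's moderated variance, reached from 0.516 to 1.01 log2 units to either side, with a median of 0.555, which is a fold of 1.47. It lay within a fold of 2 in both directions for 41 of the 47 genes. Changes smaller than these distances could not be resolved with 3 arrays.

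**Figure D1:**
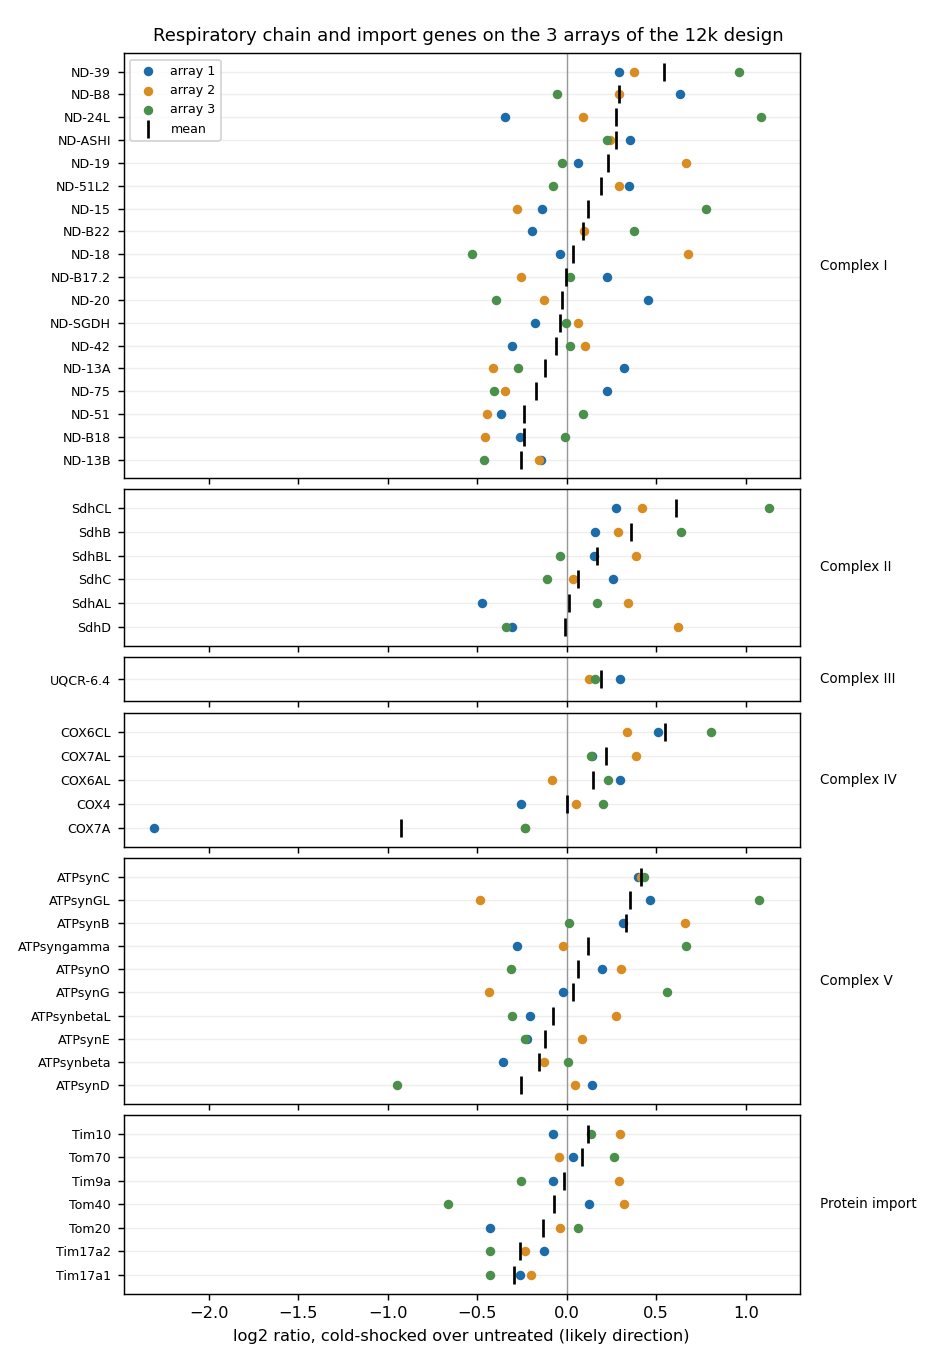
Log2 ratio (horizontal axis) of each of the 47 genes on arrays 1, 2 and 3 (coloured points) with the mean (black bar), by complex and sorted by mean. Most genes straddle 0, ATPsynC has 3 nearly equal points at about 0.41, and COX7A has 1 point at −2.30 on array 1.

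**Figure D2:**
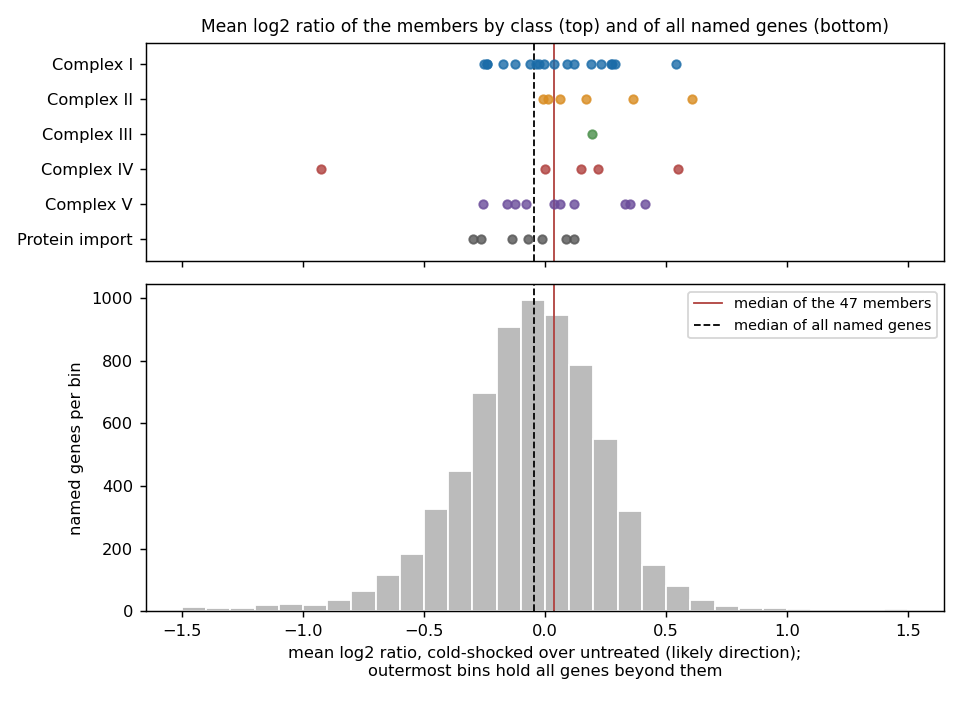
Mean log2 ratio over 3 arrays for the 47 members by class (points, top) and for the 6793 named genes (number of genes per bin of the horizontal axis, bottom), with the medians of members (0.037, solid line) and named genes (−0.048, dashed line). COX7A lies lowest of the members at −0.92, and SdhCL, COX6CL and ND-39 lie highest, at 0.61, 0.55 and 0.54.

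Complex I, the entry point for electrons from NADH, had 9 genes with means above 0 and 9 below. ND-39, an accessory subunit with a nucleotide-binding fold, stood highest in this complex, with log2 ratios of 0.29, 0.38 and 0.96 on arrays 1 to 3. All 3 arrays were above 0, and array 3 was the highest. Its mean was 0.54 ± 0.37 (SD, n = 3), 1.46-fold higher in cold-shocked flies, with an unadjusted limma p of 0.0633 and an adjusted p of 0.853. On array 3 its spots read 0.091 and 1.83, so 1 spot carried most of that value. ND-ASHI, an accessory subunit of the membrane arm, had 0.36, 0.24 and 0.22 and was the only other gene of complex I above 0 on all 3 arrays, with a mean of 0.27 ± 0.072 (n = 3) and an adjusted p of 0.866 in limma.

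The accessory subunit genes ND-13B and ND-B18 were below 0 on all 3 arrays. ND-13B had −0.14, −0.15 and −0.46, a mean of −0.25 ± 0.18 (n = 3), or 1.19-fold lower. On array 2 its spots read 0.31 and −0.62. ND-B18 had −0.26, −0.46 and −0.010, with array 3 all but at 0. The core subunits named here all had means below 0 and were below 0 on array 2. ND-51, which binds NADH and the flavin, had −0.37, −0.45 and 0.093, with a mean of −0.24. ND-75, the largest iron-sulphur subunit, had 0.23, −0.35 and −0.41, with a mean of −0.17. ND-20, a core subunit close to the quinone site, had 0.45, −0.13 and −0.40, with a mean of −0.025. Each of these has 1 array on the other side of 0 from the remaining ones. Of the rest of complex I, ND-B8 and ND-19 had means of 0.29 and 0.23, and ND-18, ND-42, ND-SGDH, ND-B17.2 and ND-B22 lay between −0.062 and 0.092. ND-13A had 0.32, −0.41 and −0.27, above 0 on array 1 alone. ND-18, needed for the assembly of the electron input module in mammals, ranged from −0.53 on array 3 to 0.67 on array 2, so its mean of 0.037 averages opposite readings. ND-15 behaved alike, from −0.28 on array 2 to 0.78 on array 3.

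Complex II, which also serves the citric acid cycle, had means above 0 for 5 of 6 genes, and all 6 were above 0 on array 2, but only 4 on array 1 and 3 on array 3. SdhB, the iron-sulphur subunit, had log2 ratios of 0.16, 0.29 and 0.64 and a mean of 0.36 ± 0.25 (SD, n = 3), 1.28-fold higher in cold-shocked flies, with an adjusted p of 0.854 in limma. The membrane anchor SdhC had 0.26, 0.033 and −0.11 and a mean of 0.061 ± 0.19 (n = 3), with array 3 below 0. SdhD, the other anchor, had −0.31, 0.62 and −0.34, high on array 2 alone, and a mean of −0.0089 ± 0.55 (n = 3).

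The duplicates of complex II spread as widely as these. SdhCL, a duplicate of the anchor gene SdhC, had 0.28, 0.42 and 1.13, the highest mean of all 47 genes at 0.61 ± 0.46 (SD, n = 3), 1.53-fold higher, at an unadjusted limma p of 0.0517 and an adjusted p of 0.853. Its values lay above 0 on every array, although on array 1 its spots read −0.054 and 0.60. Array 3 was far above the other 2, so that the mean without array 3 was 0.35. SdhBL had 0.15, 0.39 and −0.036 and SdhAL −0.47, 0.34 and 0.17, both with mixed signs.

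From complex III the only gene that the naming rule caught was UQCR-6.4, a small subunit of the cytochrome bc1 complex, with 0.30, 0.12 and 0.16. All 3 values were above 0 and close together, and the mean was 0.19 ± 0.092 (SD, n = 3), with a 95% interval of −0.33 to 0.71 and an adjusted p of 0.895 in limma. Cyt-c1 and Cyt-c1L of the same complex, measured but outside the rule, had mixed signs and means of 0.14 and −0.057.

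Complex IV, which passes electrons to oxygen, had 4 means above 0 and 1 below. Its members COX6CL, COX7AL and COX6AL are duplicates, and COX4 and COX7A are not. COX6CL, a duplicate of a small nuclear-encoded subunit gene, had log2 ratios of 0.51, 0.33 and 0.81, all above 0. Its mean of 0.55 ± 0.24 (SD, n = 3) was 1.46-fold higher in cold-shocked flies, with an unadjusted limma p of 0.0484 and an adjusted p of 0.853. On array 3 its spots read 0.20 and 1.42. COX7AL had 0.14, 0.38 and 0.13, again above 0 on every array, and a mean of 0.22 ± 0.14 (n = 3). COX6AL had 0.30, −0.083 and 0.23, with array 2 below 0. COX4, a regulatory subunit, had −0.25, 0.054 and 0.20 and a mean of 0.0013.

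COX7A, a small subunit of the same complex, had −2.30, −0.23 and −0.23 and the lowest mean of the 47 genes, at −0.92 ± 1.19 (SD, n = 3). That mean rests on a single spot. The gene has 4 spots, and on array 1 one of them read −8.40 while the other 3 read between −0.40 and −0.15. The same spot read 0.38 and −0.10 on arrays 2 and 3. Without that reading the mean was −0.25 ± 0.023 (n = 3), still below 0 on all arrays but much smaller. That small SD between arrays hides spots that differed. On arrays 2 and 3 the spots 3233 and 3234 averaged −0.45 and −0.47, and the spots 18745 and 18746 averaged −0.023 and 0.00088. On array 1, 111 of 27648 spots read more than 5 log2 units from 0, against 0 on array 2 and 22 on array 3.

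**Figure D3:**
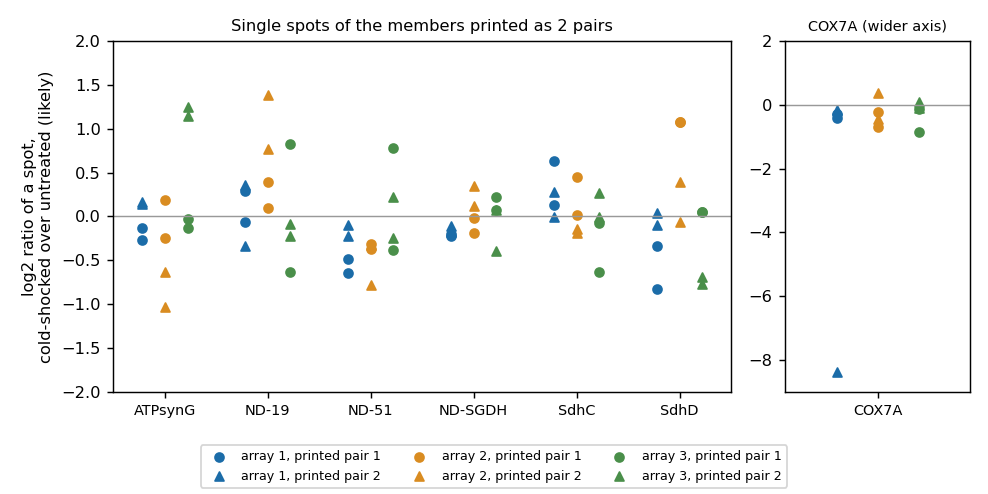
Log2 ratio (vertical axis) of every spot of the 7 genes with 2 pairs of consecutively numbered spots, by array (colour) and printed pair (circle or triangle), with COX7A on a wider axis of its own. One COX7A spot lies at −8.40 on array 1, and ATPsynG, ND-19 and SdhD have printed pairs that part from each other on at least 1 array.

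Complex V, the proton-driven ATP synthase, had 6 means above 0 and 4 below. ATPsynC, which forms the proton-carrying ring, had 0.40, 0.41 and 0.43, the closest agreement between arrays of all 47 genes. Its mean was 0.41 ± 0.018 (SD, n = 3), 1.33-fold higher in cold-shocked flies, with a 95% interval of −0.10 to 0.93 and an adjusted p of 0.853 in limma, which moderates so small an SD towards that of other features. Its 2 spots ranged from 0.30 to 0.56 over the arrays. ATPsynB, of the peripheral stalk that holds the catalytic head still, had 0.32, 0.66 and 0.010, above 0 throughout but all but at 0 on array 3, and a mean of 0.33 ± 0.33 (n = 3).

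The other subunits of the stalk and head had mixed signs. ATPsynD, also of the peripheral stalk, had 0.14, 0.048 and −0.95, with the lowest mean of the complex at −0.26 ± 0.61 (SD, n = 3) set by array 3 alone. ATPsynO, which joins that stalk to the head, had 0.20, 0.30 and −0.31. The catalytic subunit gene ATPsynbeta had −0.36, −0.13 and 0.0080, all but at 0 on array 3, and ATPsyngamma, the rotating central stalk, had −0.28, −0.023 and 0.66. ATPsynE and ATPsynG, which help pair ATP synthases in the membrane, had means of −0.12 and 0.035. All 10 intervals of the complex included 0.

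Import genes had 2 means above 0 and 5 below, and none was above 0 on all 3 arrays. Tim17a1 and Tim17a2, both related to the channel-forming Tim17 of the inner membrane, were the pair below 0 on all arrays. Tim17a1 had −0.26, −0.20 and −0.43 and a mean of −0.30 ± 0.12 (SD, n = 3), 1.23-fold lower in cold-shocked flies. Tim17a2 had −0.13, −0.23 and −0.43 and a mean of −0.26 ± 0.15 (n = 3), or 1.20-fold lower. Their adjusted p in limma was 0.862 and 0.868. On arrays 1 and 2 the spots of Tim17a2 parted, 1 reading 0.065 and 0.034 and the other −0.32 and −0.50. The difference between Tim17a1 and Tim17a2 was −0.033 ± 0.087 log2 units (n = 3). Whether cDNA spots of such related genes bind each other's transcripts was not tested.

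On the outer membrane the receptor gene Tom20 had −0.43, −0.037 and 0.064, low on array 1, and Tom70, the receptor for carrier proteins, had 0.033, −0.043 and 0.26. Tom40, the channel itself, had 0.13, 0.32 and −0.66, with array 3 low and the other 2 above 0, and a mean of −0.073 ± 0.52 (SD, n = 3). Tim9a and Tim10, the small chaperones that escort carriers through the space between the membranes, had −0.076, 0.29 and −0.25 and −0.077, 0.30 and 0.14. Both were highest on array 2. None of the 7 import genes had an unadjusted limma p under 0.05, and their smallest was 0.222.

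Of the duplicates, members whose symbols end in L (L2 for ND-51L2), 9 of 10 had a mean above 0. So did 18 of 37 other members and 43% of the named genes. The related Tim17a1 and Tim17a2, with means of −0.30 and −0.26, have no L and count with the other members. Cyt-c1L of complex III, with a mean of −0.057, is left out by the naming rule. The median of the duplicates was 0.20, and −0.0059 for the other members. By array the medians of the duplicates were 0.21, 0.31 and 0.20, with 7, 8 and 7 of 10 above 0, and those of the other members −0.038, 0.054 and −0.0030. On all 3 arrays, 3 duplicates were above 0, SdhCL, COX6CL and COX7AL, and 0 below, where 12.6% of all features were above and 15.1% below. No test was made of this contrast, because the genes were chosen with earlier results of these data known, and 1 of the 10 reached an unadjusted limma p under 0.05, as 4.78% of all features did. The remaining duplicates were ND-24L at −0.34, 0.089 and 1.09, ND-51L2 at 0.35, 0.29 and −0.076, ATPsynGL at 0.47, −0.48 and 1.07 and ATPsynbetaL at −0.20, 0.28 and −0.30, each with at least 1 array on the other side of 0.

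For 7 duplicates the gene they are named after, or in the case of COX6AL the gene levy, was on the array too. The duplicate read higher on average in 5 of these 7 pairs. On every array it did so in 2 pairs, and in 0 pairs was it lower on every array. SdhCL exceeded SdhC by 0.014, 0.39 and 1.24, a mean difference of 0.55 ± 0.63 (SD, n = 3), smaller than its own spread. COX7AL exceeded COX7A by 2.45, 0.62 and 0.37, a mean of 1.15 ± 1.13 (n = 3), and the first of these contains the single low COX7A spot. ND-51L2 exceeded ND-51 by 0.43 ± 0.52 (n = 3), ATPsynbetaL exceeded ATPsynbeta by 0.080 ± 0.36 (n = 3), and ATPsynGL exceeded ATPsynG by 0.32 ± 0.32 (n = 3). In the other direction SdhBL less SdhB was −0.19 ± 0.42 and COX6AL less levy −0.079 ± 0.18 (n = 3 each). A further pair, outside the naming rule and not counted here, also went that way on average. Cyt-c1L had −0.27, −0.32 and 0.42, a mean of −0.057, and Cyt-c1 had a mean of 0.14. With 3 arrays a sign-flip test of a difference cannot go below a two-sided p of 0.25, so none was run.

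**Figure D4:**
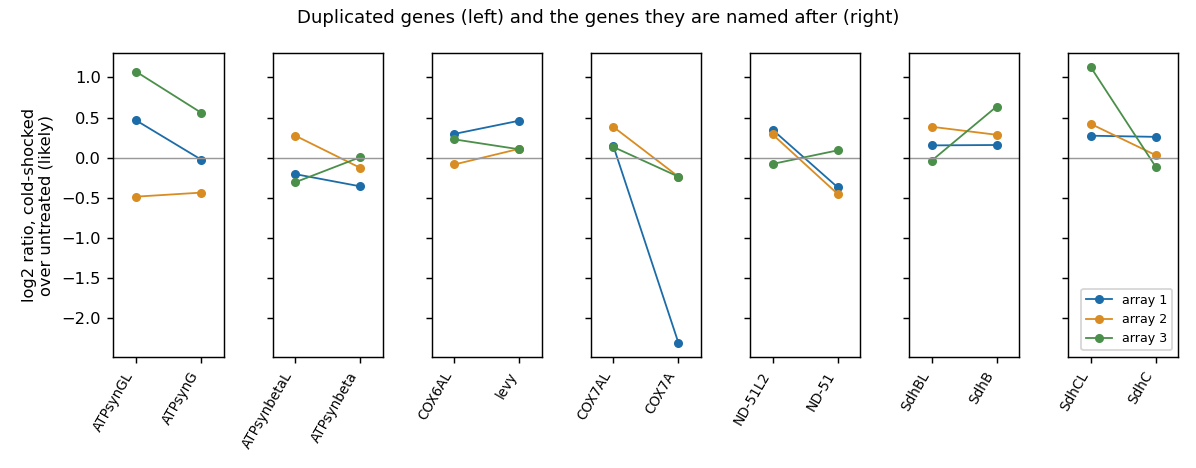
Log2 ratio (vertical axis) of 7 duplicated genes (left in each panel) and of the genes they are named after, with levy for COX6AL (right), lines joining the values of 1 array. SdhCL and COX7AL lie above their partners on all 3 arrays, and the other 5 pairs cross on at least 1.

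Testis markers, set beside the duplicates because many such duplicates are expressed mainly there, had a median of 0.073 over 7 measured genes, with −0.091, −0.027 and 0.16 on arrays 1 to 3. The sperm tail gene dj had 0.38, −0.027 and 0.62 and the testis tubulin gene betaTub85D −0.44, −0.082 and 0.16. Above 0 on all arrays was ocn at 0.068, 0.25 and 0.18, and the testis proteasome gene Prosalpha4T1 was below at −0.71, −0.41 and −0.75. The 8 muscle markers measured had a median of 0.077 and mixed signs in all 8 cases. The part of either tissue in the members' values was not tested.

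Repeated spots show how firmly a single array fixes a gene. The 47 genes have 54 pairs of spots, an odd-numbered spot and the next even one, called printed pairs here although the files do not give their places on the slide. The spots of a pair differed by a median of 0.177, 0.239 and 0.27 log2 units on arrays 1 to 3, against 0.321, 0.341 and 0.394 over the 7558 pairs of all named genes. Both spots had the same sign in 44, 42 and 35 of the 54 pairs, or 81.5%, 77.8% and 64.8%. Over the pairs of all named genes the shares were 66.7%, 58.8% and 63.7%, so on array 3 the members lay near that share. A difference over 2 occurred in 1 pair on 1 array, that of COX7A. Among the 7558 pairs of named genes it occurred in 124, 17 and 107 on arrays 1 to 3. Across arrays the members varied by a median SD of 0.279, against 0.338 over the named genes.

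With spot numbers far apart, 7 members had 2 pairs each. Both pairs had the same sign in 11 of 21 comparisons of a gene on an array, and their means over arrays in 5 of the 7 genes. For ATPsynG the pairs read −0.031 and −0.84 on array 2, and −0.078 and 1.20 on array 3. ND-51 had the closest pair means over the arrays, at −0.24 and −0.24, but its pairs differed on each array in directions that cancelled. They read −0.57 and −0.16 on array 1, −0.35 and −0.55 on array 2, and 0.20 and −0.014 on array 3. SdhD turned sign between its pairs, at 0.18 and −0.20. Whether a pair holds another clone of the gene is not given in the sources used here.

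Arrays ordered the 47 genes only weakly alike. Taken across genes, which share the arrays and so are no replicates of each other, Pearson's correlation came to 0.22 for arrays 1 and 2, 0.14 for arrays 1 and 3, and −0.016 for arrays 2 and 3, with Spearman's rho at 0.20, 0.10 and 0.037. Without COX7A, r was 0.16, 0.10 and −0.032. The same sign was read for 28, 24 and 23 of the 47 genes, and for 3594, 3625 and 3568 of the 6793 named genes. Over all named genes r was 0.088, 0.098 and 0.078. The spread of the members over genes, as an interquartile range, was 0.52, 0.453 and 0.511 on the arrays, and 0.566, 0.437 and 0.586 over named genes.

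Other genes listed as mitochondrial, outside the naming rule, were grouped by role, and 51 of 136 names on the list were measured. Only 104 of the names are symbols of the RefSeq table, so 136 is not a count of genes. UQCR-C1 and UQCR-C2 on the list do fit the rule but were not measured. Of the 51 genes, 8 were above 0 on all 3 arrays and 8 below, 0 passed the adjusted limma test and 2 lay under an unadjusted p of 0.05, where 12.6%, 15.1%, 0% and 4.78% of all features did so. The median of their means was −0.041, close to that of the named genes. By role the medians were −0.014 for 8 genes of electron carriers and exchange, 0.058 for 12 of import and folding and −0.029 for 8 of biogenesis and mitochondrial DNA. The 11 genes listed under the citric acid cycle and pyruvate had a median of −0.0045. For 12 listed under assembly, other oxidases and uncoupling proteins it was −0.18, and these include the subunit genes levy, Cyt-c1 and Cyt-c1L. Where each listed product lies in the cell was not checked.

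The furthest from 0 was ttm50, which encodes a fly relative of the import receptor Tim50, with 0.92, 0.064 and 1.78 and a mean of 0.92 ± 0.86 (SD, n = 3), 1.90-fold higher in cold-shocked flies, at an unadjusted limma p of 0.0314 and an adjusted p of 0.853. Its ratio was near 0 on array 2. Lon, the protease of the mitochondrial matrix, had −0.20, −0.020 and −1.81, a mean of −0.68 ± 0.98 (n = 3) set by array 3. Bmcp, a mitochondrial carrier of the uncoupling protein family, had −1.80, −0.053 and −0.037, a mean of −0.63 ± 1.02 (n = 3) set by array 1.

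Some genes of the list are named after their values were seen. Pink1, a kinase of mitochondrial quality control, was above 0 on all arrays at 0.54, 0.44 and 0.75, with a mean of 0.57 ± 0.16 (SD, n = 3), 1.49-fold higher, and an unadjusted limma p of 0.0371 with an adjusted p of 0.853. The other members of the uncoupling protein family on the array were Ucp4A at −0.84, −0.26 and 0.46, Ucp4B at −0.050, −0.43 and −0.67 and Ucp4C at −1.17, −0.21 and −0.00019. All 4 family means lay below 0, as did those of 3869 of the 6793 named genes. Array 1, whose median over all spots was −0.13, was lowest for Bmcp, Ucp4A and Ucp4C, and array 3 was lowest for Ucp4B. None of the 4 passed, and their smallest unadjusted limma p was 0.143. Further subunit genes whose names the rule does not catch were levy of complex IV at 0.46, 0.11 and 0.11 and Cyt-c1 of complex III at −0.094, 0.53 and −0.019.

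**Figure D5:**
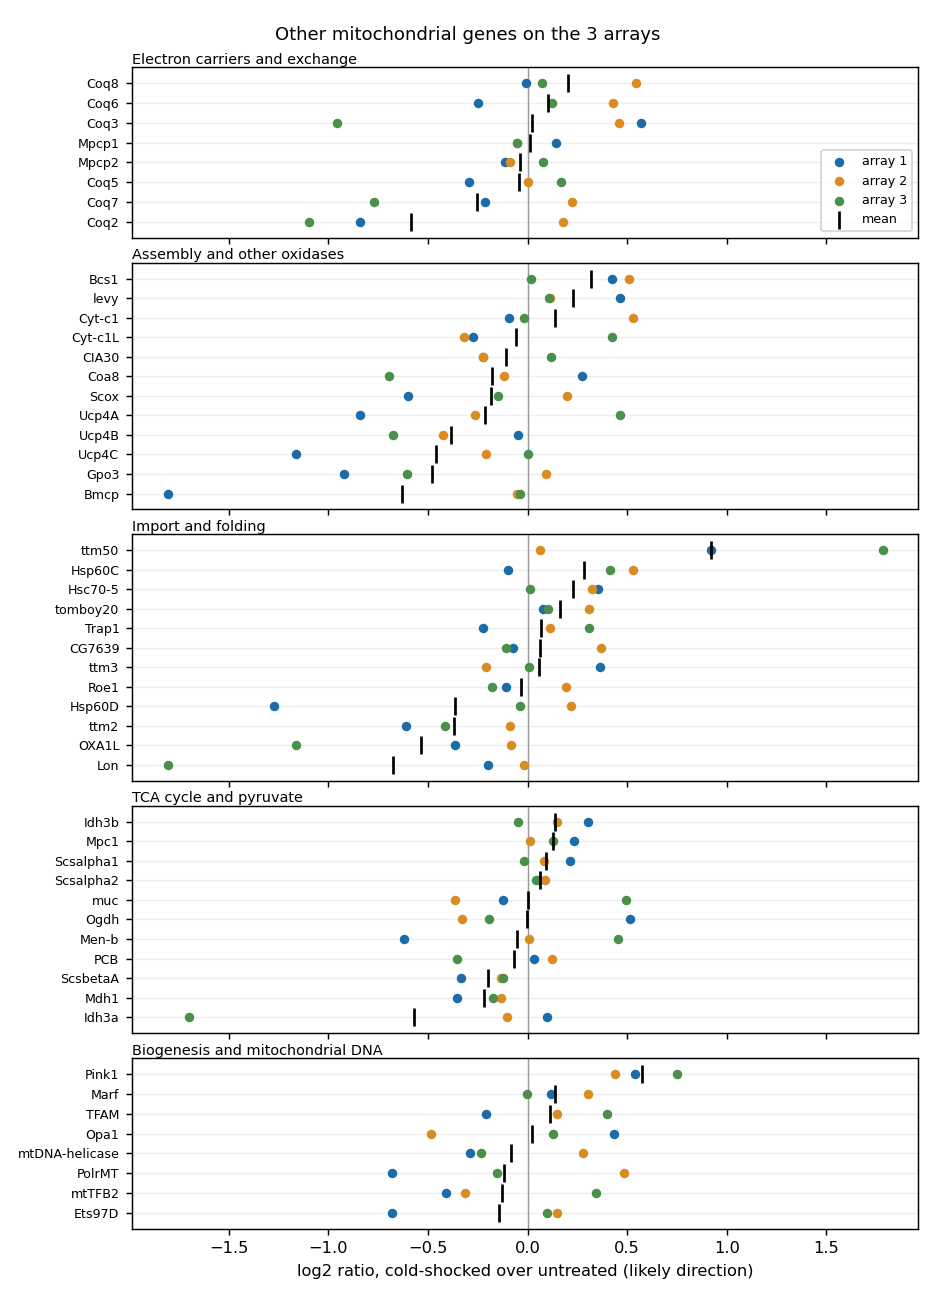
Log2 ratio (horizontal axis) of 51 other mitochondrial genes on arrays 1, 2 and 3 (coloured points) with the mean (black bar), by role and sorted by mean. Pink1 has 3 points above 0, ttm50 is spread widely above 0, and Bmcp and Lon each have 1 array far below the other points.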

How the data were processed

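The deposited values are log ratios of the channels of each spot, taken here as log2; the authors derived them from normalized data, per the labels' descriptions. Image analysis, background correction, normalization and spot filters are not given in the sources read for this work, and channel intensities were not analysed here, so spots could not be judged against background. Of 27648 spots, 15116 had 1 gene symbol in the platform annotation, 102 several and 12430 none. Gene identifiers of 14894 spots were found in the RefSeq table and 222 kept the annotation's symbol.

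Spots of a gene were averaged within an array, spots with no or several symbols stayed separate features, and a two-sided moderated test (limma 3.58.1 under R 4.3.3, functions lmFit and eBayes) asked whether the mean log2 ratio of 3 arrays differed from 0. P-values were adjusted over 19325 features after Benjamini and Hochberg, and 0.05 was the threshold. Residual degrees of freedom numbered 2 and prior ones 4.99. The script was also run on simulated normal noise with added changes, without outlying spots or a dye effect. The outcome is not used as support here. The number of arrays limits the precision. The members and lists were chosen with earlier results of these data known. Named are members with one sign on all 3 arrays or an unadjusted p under 0.05, the extremes of each class, all of complex II and import, any with spots over 2 apart, and the 3 genes furthest from 0 on the other mitochondrial list. Core subunits, further duplicates and genes with 2 printed pairs were added after their values were seen. Promoter and protein sequences were not used here, and the planned search for a promoter element was not run. Alternatives were centring of arrays, subtraction of the median of 50 spots on each side in spot order, the median of spots, named genes only, every spot its own feature, a robust eBayes, the annotation's own symbols, each array left out, and removal of spots past 5 log2 units, which was chosen after seeing the data.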

Additional observations from a re-analysis of the deposited data

How the results depend on the processing

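The count of members past the adjusted limma test was 0 under all 11 alternatives, as was the count over all features, where the smallest adjusted p ranged from 0.184 for named genes only to 0.954 without replicate 3. Of members at an unadjusted p under 0.05 there was 1 as reported, COX6CL. There were 3 with array medians subtracted (with SdhCL and ND-39), 3 with local medians subtracted (with SdhCL and ND-24L), 3 for named genes only (with SdhCL and ND-39), 2 with every spot its own feature (SdhCL and ND-39), 2 with spots past 5 left out (with SdhCL), and 0 to 1 without one replicate (SdhCL without replicate 1, COX7A without replicate 2, none without replicate 3, and COX6CL in none of these). With 1 array fewer to pass, members above 0 on all arrays numbered 13 to 17 and members below 8 to 11. The median of all members was 0.080 with local medians subtracted, that of complex II 0.29 and that of the duplicates 0.27. Without one replicate the median of complex I ran from −0.048 to 0.067, that of complex II from 0.067 to 0.22, that of complex V from 0.013 to 0.053 and that of all members from 0.027 to 0.074. The median of import ran from −0.18 to 0.013.

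Signs of many single genes were not stable, also of some further from 0 such as ATPsynGL, ND-24L and ATPsynD. With array medians subtracted ND-B17.2, SdhD and Tim9a became 0.015, 0.012 and 0.0082. With local medians subtracted ATPsynD, ND-18, ND-42, ND-SGDH, SdhAL and SdhD became 0.00094, −0.020, 0.032, 0.0042, −0.042 and 0.33, and with the median of spots SdhD became 0.064. COX7A, at −0.92, became −0.25 with the median of spots and ranged from −1.27 to −0.23 without one replicate. Without one replicate the mean turned for 23 of 47 genes, namely ATPsynD from −0.45 to 0.093, ATPsynG from −0.23 to 0.27, ATPsynGL from −0.0092 to 0.77, ATPsynO from −0.058 to 0.25, ATPsynbetaL from −0.25 to 0.036, ATPsyngamma from −0.15 to 0.32, COX4 from −0.10 to 0.13, ND-13A from −0.34 to 0.022, ND-15 from −0.21 to 0.32, ND-18 from −0.28 to 0.32, ND-20 from −0.26 to 0.16, ND-24L from −0.13 to 0.59, ND-42 from −0.14 to 0.061, ND-B17.2 from −0.12 to 0.12, ND-B22 from −0.050 to 0.23, ND-SGDH from −0.090 to 0.031, SdhAL from −0.15 to 0.26, SdhC from −0.039 to 0.15, SdhD from −0.32 to 0.16, Tim9a from −0.17 to 0.11, Tom20 from −0.23 to 0.013, Tom40 from −0.27 to 0.22 and Tom70 from −0.0049 to 0.15. The other 24 kept their sign. The cause of these turns was not tested. The test of the ratios is itself paired, as each ratio sets both samples of a pair against each other. Leaving out assembly factors changed nothing, since no member is one, and no value was missing.

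The pilot array of the 7k design carried 12 genes of the rule, 10 of them shared. Its direction is not settled and it has no replicate, so values are given relative to its median of 0.40, as deposited. COX7AL, SdhBL, SdhCL and Tim9a stood at −0.26, −0.68, −1.07 and 0.64, opposite to their means. With its sign turned, ATPsynGL, COX6AL, ND-B8, ND-13A, ND-51 and Tom40 were opposite, at −0.58, −0.59, −0.29, 0.083, 0.81 and 0.91.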
